A study of Mus musculus with 8 samples.

Results

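The canonical BAF complex (cBAF) is the form of the SWI/SNF chromatin remodeler that holds an ARID1 subunit. The genes that encode 3 of its variable positions were followed here in pachytene spermatocytes of *Arid1a* WT and *Arid1a* cKO mice. The members were chosen by the position they fill in the complex: the paralogs *Arid1a* and *Arid1b*, the paralogs *Dpf1*, *Dpf2* and *Dpf3*, and the paralogs *Ss18* and *Ss18l1*. They were 7 of the 21058 genes listed, and all 7 passed the filter on low counts. The other 22 genes for subunits of SWI/SNF complexes were used for comparison.

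SWI/SNF complexes use the energy of ATP to slide or evict nucleosomes, and so change how open a stretch of chromatin is. The cBAF, PBAF and non-canonical BAF forms share an ATPase and a core, and differ in the subunits added to it. In cBAF, ARID1A or ARID1B holds the base together as alternatives to each other, a DPF protein reads histone modifications, and SS18 or SS18L1 joins the ATPase module. The ARID1 and DPF proteins mark cBAF, whereas the SS18 pair is shared with non-canonical BAF and missing only from PBAF. Male germ cells in pachynema, the long stage of meiosis I in which homologs are synapsed, silence their sex chromosomes, and the study asked what ARID1A does at this stage.

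RNA-seq libraries were made from mRNA of Sta-Put purified pachytene spermatocytes, 4 from *Arid1a* WT and 4 from *Arid1a* cKO testes. Sta-Put sorts dissociated testis cells by how fast they settle at unit gravity, and the testes of several adult males were pooled for a purification. Males of the *Arid1a* cKO genotype had the alleles *Arid1a* fl/fl with 1 copy of the *Stra8-Cre* transgene (Tg/0), which is active from the spermatogonial stage on. *Arid1a* WT males were *Arid1a* fl/fl or *Arid1a* fl/+ and lacked Cre, so floxed alleles were present in both genotypes, and the floxed line was kept on a CD1 background. The study describes this excision as incomplete, so the purified *Arid1a* cKO cells include pachytene spermatocytes that kept ARID1A. The labels name the libraries biological replicates but do not say whether they came from separate purifications. The p-values rest on the spread between these libraries, and whether they extend to other purifications or animals cannot be told.

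The floxed alleles place loxP sites around exons 5 and 6 of *Arid1a*, which lies on the minus strand of chromosome 4. Both exons are shown because they are the bases that separate an excised *Arid1a* transcript from an intact one. They are coding exons of transcript Arid1a-205 in GENCODE M21 (GRCm38), and are printed in lower case, 5′ to 3′ along the transcript.
Exon 5, chr4:133695916-133696156: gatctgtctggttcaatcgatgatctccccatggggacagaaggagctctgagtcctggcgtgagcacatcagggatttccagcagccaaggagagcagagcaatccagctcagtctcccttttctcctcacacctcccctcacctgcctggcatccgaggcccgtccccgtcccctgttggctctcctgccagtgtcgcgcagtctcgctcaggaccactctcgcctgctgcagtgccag
Exon 6, chr4:133695572-133695661: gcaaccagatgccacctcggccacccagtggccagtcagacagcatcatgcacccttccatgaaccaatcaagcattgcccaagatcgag
Exon 5 has 241 bases and exon 6 has 90, together 331 of the 8187 bases of the transcript, or 4.04%. This length is not a multiple of 3, so joining exon 4 to exon 7 shifts the reading frame. Reads from the rest of an excised transcript still count toward the gene, and the gene-level values below do not separate excised from intact *Arid1a* mRNA.

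Estimated counts summed to 18308688 to 22044507 per *Arid1a* WT library and to 15850961 to 21626772 per *Arid1a* cKO library. Levels between genotypes are given as CPM, a gene's counts relative to the TMM-scaled library size, and compared with edgeR's quasi-likelihood test, where a gene was called if its p, adjusted by Benjamini-Hochberg over all genes tested, was at most 0.05. Levels between genes are given as TPM, Salmon's transcript abundance, which divides by transcript length. The listed genes took up 78.1% to 81.1% of the TPM total in *Arid1a* WT and 88.1% to 88.6% in *Arid1a* cKO libraries, so TPM was used within a library and not to test a gene between genotypes, except as an alternative. Markers of other cell types differed between the genotypes. The study took fractions judged by light microscopy to be mostly pachytene spermatocytes, and RNA of other cells cannot be told apart here from a change of these genes within pachytene spermatocytes. The 12 markers of spermatids, the haploid cells that follow meiosis, summed to 1828 to 2022 CPM in *Arid1a* WT and to 8540 to 8793 CPM in *Arid1a* cKO libraries. The 6 Sertoli cell markers summed to 149 to 170 CPM in *Arid1a* WT and 59.0 to 64.1 CPM in *Arid1a* cKO libraries, and the 5 Leydig cell markers to 54.1 to 57.0 CPM and 6.51 to 6.84 CPM. The 10 markers of pachytene spermatocytes were present throughout, at 9952 to 11490 CPM and 8209 to 8444 CPM.

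Of the 7 genes, *Arid1b* and *Dpf3* were higher and *Arid1a* was lower in *Arid1a* cKO, while *Dpf1*, *Dpf2*, *Ss18* and *Ss18l1* were not called. These 3 calls out of 7 (42.9%) stand beside 74.0% of all 17643 genes tested, of which 6435 were called higher and 6613 lower. The median log2 fold change was 0.10 over the 7 genes and -0.02 over all genes tested. The CPM of the genotypes did not overlap for the same 3 genes, against 68.9% of all genes tested. As these are bulk samples, fewer cells of a type and less RNA per cell cannot be told apart.

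**Figure D1:**
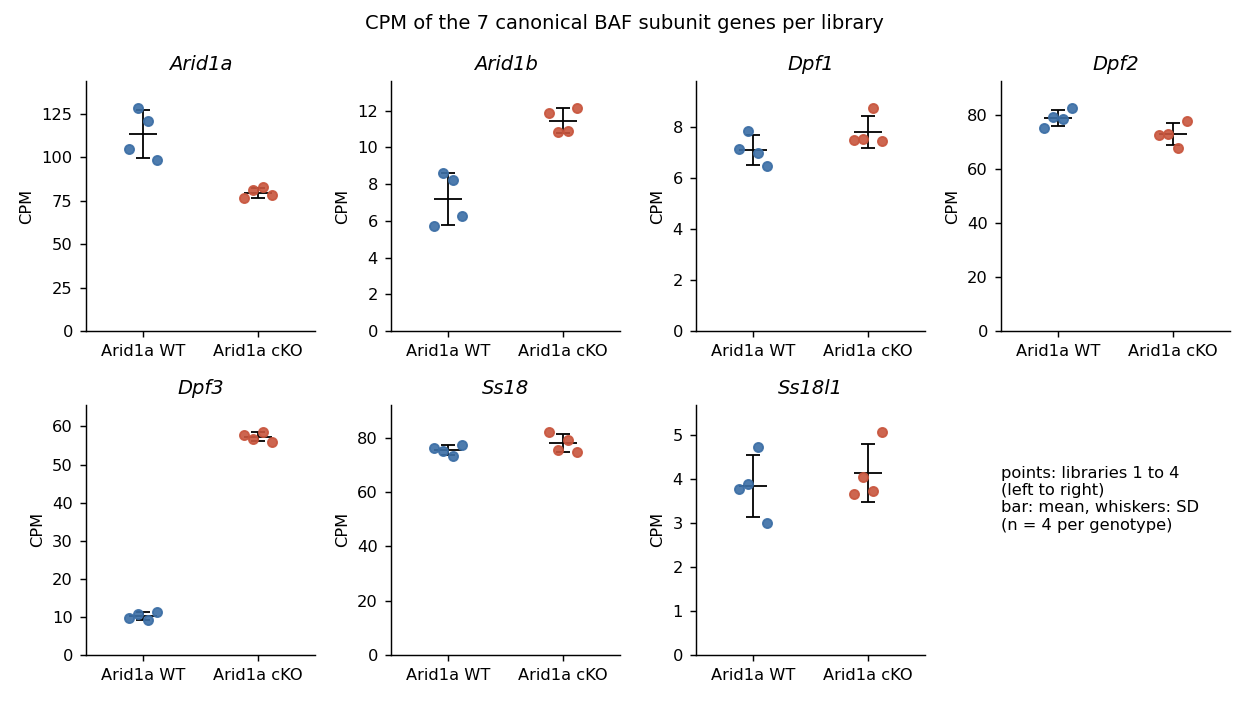
CPM of each gene in the 4 *Arid1a* WT (blue) and 4 *Arid1a* cKO (red) libraries, each panel with its own axis from 0; points are libraries 1 to 4 from left to right, the bar is the mean and the whiskers the SD. *Dpf3* moves from 9.08 to 11.2 CPM up to 56.0 to 58.7 CPM, *Arid1a* and *Arid1b* move in opposite directions without overlap, and the other panels overlap.

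*Arid1a* encodes the targeted subunit, the ARID protein at the base of most cBAF. It was measured at 105, 128.5, 121 and 98.8 CPM in *Arid1a* WT libraries 1 to 4, and at 76.4, 81.0, 82.9 and 78.3 CPM in *Arid1a* cKO libraries 1 to 4. All *Arid1a* cKO libraries were below all *Arid1a* WT libraries, and the *Arid1a* WT libraries fell into a higher pair (2 and 3) and a lower pair (1 and 4). The *Arid1a* WT mean was 113.3 ± 13.8 CPM and the *Arid1a* cKO mean 79.7 ± 2.89 CPM (SD, n = 4 each). This was a log2 fold change of -0.51 ± 0.07 (SE, edgeR adjusted p = 2.31e-05), so that 0.703 of the *Arid1a* WT level was left. *Arid1a* was called lower in all 19 alternative fits, at -0.61 to -0.44. The gene spans chr4:133679008-133756769 (GRCm38.p6). Sertoli and Leydig cells are somatic and lie outside the reach of a germ-line Cre, and their markers fell in *Arid1a* cKO, 6 of 6 and 5 of 5 called lower, with medians of -1.40 and -2.94 on the log2 scale. Other lists moved too. Of 6 macrophage and blood markers tested, 4 were called higher and 1 lower, and their sum was 2.36 times as high in *Arid1a* cKO. Of 3 peritubular and endothelial markers, 2 were called higher and 1 lower, with a sum 1.30 times as high. Of 10 pachytene markers, 6 were called lower and 2 higher, and their sum in *Arid1a* cKO was 0.766 of that in *Arid1a* WT. Of 6 leptotene and zygotene markers, 3 were called higher and 3 lower, at -2.68 to 2.50, and their sum in *Arid1a* cKO was 0.625 of that in *Arid1a* WT. The part of these shifts in the *Arid1a* value was not tested.

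*Arid1b* encodes the alternative ARID1 subunit, which fills the same place in the complex and is known as the most frequently mutated gene in Coffin-Siris syndrome. It was far scarcer than *Arid1a* in both genotypes. Its level was 5.74, 8.60, 8.23 and 6.28 CPM in *Arid1a* WT libraries 1 to 4, and 11.9, 10.8, 10.9 and 12.15 CPM in *Arid1a* cKO libraries 1 to 4. The genotypes did not overlap, and *Arid1a* WT libraries 1 and 4 were again the lower pair. The means were 7.21 ± 1.41 and 11.4 ± 0.667 CPM (SD, n = 4 each), a log2 fold change of 0.66 ± 0.12 (SE, edgeR adjusted p = 0.000168). *Arid1b* was called higher in all 19 alternative fits, at 0.45 to 0.81. It lies at chr17:4994297-5347656. The markers of spermatids rose with it, 12 of 12 called higher and their sum 4.44 times as high in *Arid1a* cKO, and their part in the *Arid1b* level and its ratio to *Arid1a* was not tested.

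Set against each other within a library, *Arid1b* reached 0.0504 to 0.0621 of the *Arid1a* TPM in *Arid1a* WT and 0.114 to 0.195 in *Arid1a* cKO libraries. The log2 ratio was -4.31, -4.01, -4.04 and -4.06 in *Arid1a* WT and -2.86, -3.07, -3.13 and -2.36 in *Arid1a* cKO libraries 1 to 4. Every *Arid1a* cKO library was above every *Arid1a* WT library. The difference of the means was 1.25 (two-sided exact permutation test, p = 0.0286, adjusted p = 0.0572 over 4 ratios). That p is the smallest that 4 libraries against 4 can give, and 2 of the 4 ratios reached it. In TPM, *Arid1b* was already higher and *Arid1a* already lower in every *Arid1a* cKO library, so their ratio had to separate the genotypes. Its p therefore adds no support to the results of the single genes. Of the TPM of both ARID1 genes together, *Arid1b* made up 5.51% ± 0.479 in *Arid1a* WT and 12.3% ± 2.77 in *Arid1a* cKO (SD, n = 4). With excised and intact transcripts counted together, *Arid1a* held 83.7% to 89.8% of ARID1 TPM in *Arid1a* cKO libraries. By RT-PCR, the study saw more of the excised than of the floxed product in *Arid1a* cKO pachytene spermatocytes. The share of intact *Arid1a* transcript is therefore not known from these values. The ratio in *Arid1a* cKO library 4 stood above the other 3, and that library also had the shortest recovered *Arid1b* transcript, described with the transcript lengths. Counted as CPM, without division by length, the difference was 1.19, with the same p.

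The DPF position showed the largest change. DPF proteins carry paired PHD fingers that bind acetylated histone tails. DPF2 is the widely expressed member, DPF1 is best known from neurons, and DPF3 from heart and skeletal muscle. *Dpf3* was measured at 9.80, 10.7, 9.08 and 11.2 CPM in *Arid1a* WT libraries 1 to 4, and at 57.8, 56.8, 58.7 and 56.0 CPM in *Arid1a* cKO libraries 1 to 4. Each genotype was tight and the gap between them was wide. The means were 10.2 ± 0.948 and 57.3 ± 1.14 CPM (SD, n = 4 each), 5.62 times as much in *Arid1a* cKO. The log2 fold change was 2.49 ± 0.07 (SE, edgeR adjusted p = 1.75e-13), and it was called in all 19 alternative fits, at 2.30 to 2.55. *Dpf3* lies at chr12:83213751-83487736.

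Spermatid markers moved with *Dpf3*. All 12, which include the protamine genes *Prm1* and *Prm2* and the transition protein genes *Tnp1* and *Tnp2*, were called higher in *Arid1a* cKO, with log2 fold changes of 1.79 to 2.39 and a median of 2.16. The value of *Dpf3* was just above this range. Their summed level was 4.44 times as high in *Arid1a* cKO, and 0 of the 12 markers were at 0 counts in any library. Their part in the *Dpf3* result was not tested. Markers of spermatogonia also rose, 7 of 8 called higher with a median of 0.61.

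*Dpf2*, the widely expressed paralog, was at 75.3, 79.2, 78.6 and 82.7 CPM in *Arid1a* WT and at 72.7, 73.1, 67.9 and 77.8 CPM in *Arid1a* cKO libraries 1 to 4. Only *Arid1a* cKO library 4 reached into the *Arid1a* WT range. The log2 fold change was -0.12 ± 0.05 (SE, edgeR adjusted p = 0.0600), with 2 SE to each side spanning -0.22 to -0.01. This call depended on the processing: *Dpf2* was called lower in 6 of 19 alternative fits, among them those without *Arid1a* WT library 1 (-0.14, edgeR adjusted p = 0.0463), without *Arid1a* cKO library 4 (-0.15, edgeR adjusted p = 0.0283) and with the replicate number as a block (-0.12, edgeR adjusted p = 0.0492).

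*Dpf1* was weakly expressed, at 7.12, 7.87, 6.97 and 6.46 CPM in *Arid1a* WT and 7.48, 7.54, 8.76 and 7.45 CPM in *Arid1a* cKO libraries 1 to 4. The genotypes overlapped. The log2 fold change was 0.14 ± 0.10 (SE, edgeR adjusted p = 0.206), with 2 SE to each side spanning -0.05 to 0.33. It was not called in any alternative fit, and was 0.08 without *Arid1a* cKO library 3 and 0.04 without TMM.

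Within each library, *Dpf3* went from 0.173 to 0.231 of the *Dpf2* TPM in *Arid1a* WT to 1.15 to 1.32 in *Arid1a* cKO. The log2 ratio was -2.28, -2.29, -2.54 and -2.11 in *Arid1a* WT and 0.30, 0.20, 0.38 and 0.40 in *Arid1a* cKO libraries 1 to 4. The sign of the ratio differed between the genotypes in all 8 libraries, so *Dpf2* was the most abundant DPF transcript in every *Arid1a* WT library and *Dpf3* in every *Arid1a* cKO library. The difference of the means was 2.63 (two-sided exact permutation test, p = 0.0286, adjusted p = 0.0572 over 4 ratios). *Dpf3* made up 15.6% ± 1.54 of DPF TPM in *Arid1a* WT and 52.8% ± 1.68 in *Arid1a* cKO, while *Dpf2* went from 77.0% ± 2.39 to 42.3% ± 1.44 and *Dpf1* from 7.32% ± 1.81 to 4.93% ± 0.559 (SD, n = 4). The log2 ratio of *Dpf1* to *Dpf2* overlapped between genotypes (difference of 0.32, two-sided exact permutation test, p = 0.171, adjusted p = 0.200). Without *Arid1a* WT library 2, where *Dpf1* TPM stood apart, that difference was 0.49 (exact permutation test, p = 0.0286).

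**Figure D2:**
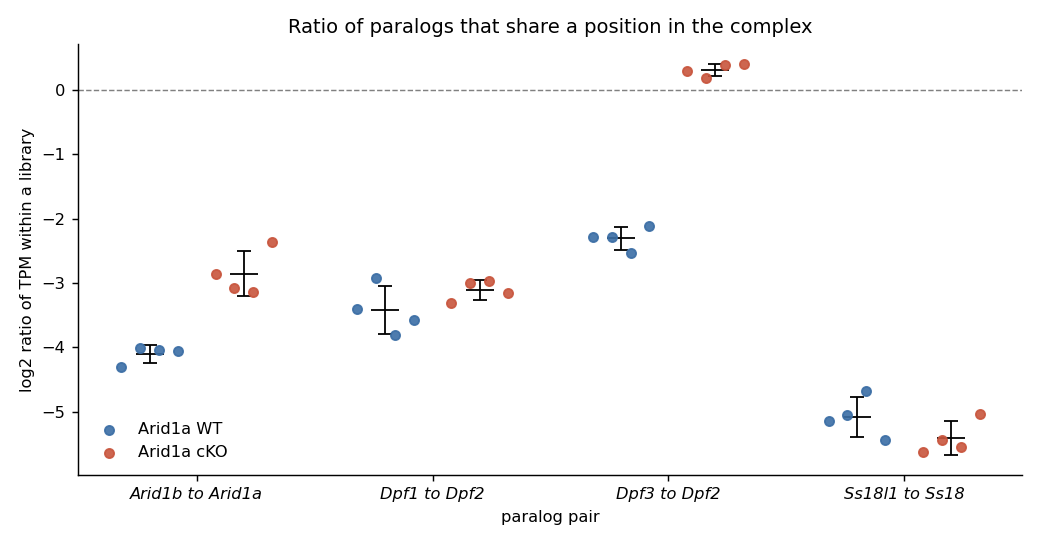
Log2 ratio of TPM between paralogs in each of 4 *Arid1a* WT (blue) and 4 *Arid1a* cKO (red) libraries, with the mean and SD; the dashed line marks equal abundance. *Dpf3* to *Dpf2* crosses the line, from -2.54 to -2.11 in *Arid1a* WT to 0.20 to 0.40 in *Arid1a* cKO, and *Arid1b* to *Arid1a* lies below the line in all 8 libraries, higher in every *Arid1a* cKO library.

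SS18 joins the ATPase module of cBAF and non-canonical BAF and is known from the SS18-SSX fusions of synovial sarcoma, and SS18L1, also called CREST, is its paralog in neuronal BAF. *Ss18* was at 76.1, 75.0, 73.2 and 77.5 CPM in *Arid1a* WT and at 82.3, 75.6, 79.3 and 74.9 CPM in *Arid1a* cKO libraries 1 to 4. The genotypes overlapped in these gene counts. The log2 fold change was 0.05 ± 0.05 (SE, edgeR adjusted p = 0.361), with 2 SE to each side spanning -0.05 to 0.15. Divided by transcript length the picture differed: *Ss18* was at 43.9, 45.6, 43.4 and 44.1 TPM in *Arid1a* WT and 55.4, 55.2, 54.9 and 52.0 TPM in *Arid1a* cKO libraries, with no overlap. With offsets for transcript length, edgeR called *Ss18* higher at 0.39 (adjusted p = 2.3e-05), and limma on log2(TPM + 1) gave 0.29 (adjusted p = 9.16e-05).

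*Ss18l1* was the least expressed of the 7 genes by CPM. It was at 3.76, 3.89, 4.72 and 3.003 CPM in *Arid1a* WT and at 3.66, 4.05, 3.73 and 5.08 CPM in *Arid1a* cKO libraries 1 to 4. The ranges overlapped from 3.66 to 4.72 CPM, with the lowest library in *Arid1a* WT and the highest in *Arid1a* cKO, and the gene had only 66.2 to 94.4 estimated counts per library. The log2 fold change was 0.10 ± 0.16 (SE, edgeR adjusted p = 0.582), with 2 SE to each side spanning -0.22 to 0.42. *Ss18l1* TPM was 0.0229 to 0.0390 of *Ss18* TPM in *Arid1a* WT and 0.0203 to 0.0305 in *Arid1a* cKO. The difference of the log2 ratio was -0.33 (two-sided exact permutation test, p = 0.200, adjusted p = 0.200), and it was 0.06 on CPM, where the length of *Ss18* does not enter. *Ss18* supplied at least 96.2% of SS18-class TPM in each of the 8 libraries.

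The length that Salmon assigned to a gene in a library can be recovered from its counts and TPM. It is the mean length of the transcripts to which the reads were assigned, and moves when a gene's reads shift between its isoforms. The conversion to bases was fitted on 609 genes with a single annotated transcript, and differed from their annotated length by a median of 0.0525%. As the same genes were used for the fit, this is its residual and not a check on genes with several isoforms. *Ss18* had a mean length of 2566 to 2690 bases in *Arid1a* WT and 1963 to 2070 bases in *Arid1a* cKO libraries. Every *Arid1a* cKO library was shorter, by a ratio of 0.765 on the effective length, which leaves out the part of a transcript where a fragment cannot start, and 7.27% of 13958 genes changed length at least as much. GENCODE M21 lists 11 *Ss18* transcripts of 568 to 4153 bases. Which of them gained reads cannot be read from gene-level tables.

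*Arid1a* had a recovered length of 7571, 7419, 7113 and 7431 bases in *Arid1a* WT and 6834, 7009, 6822 and 6673 bases in *Arid1a* cKO libraries 1 to 4. The genotypes did not overlap, at a ratio of 0.928, and 31.7% of 13958 genes changed length at least as much. *Ss18* and *Arid1a* were 2 of the 7 genes without overlap in length, against 25.9% of 13958 genes. *Dpf3* had nearly the same length in both genotypes, 1186 to 1262 and 1191 to 1221 bases. *Arid1b* was at 7717 to 8194 bases in 7 libraries and at 5352 in *Arid1a* cKO library 4, and *Dpf1* was shortest in library 2 of both genotypes, at 1411 and 1424 bases. *Dpf2* overlapped between genotypes, and *Ss18l1*, which has 1 annotated transcript, stayed at 4343 to 4346 bases.

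**Figure D3:**
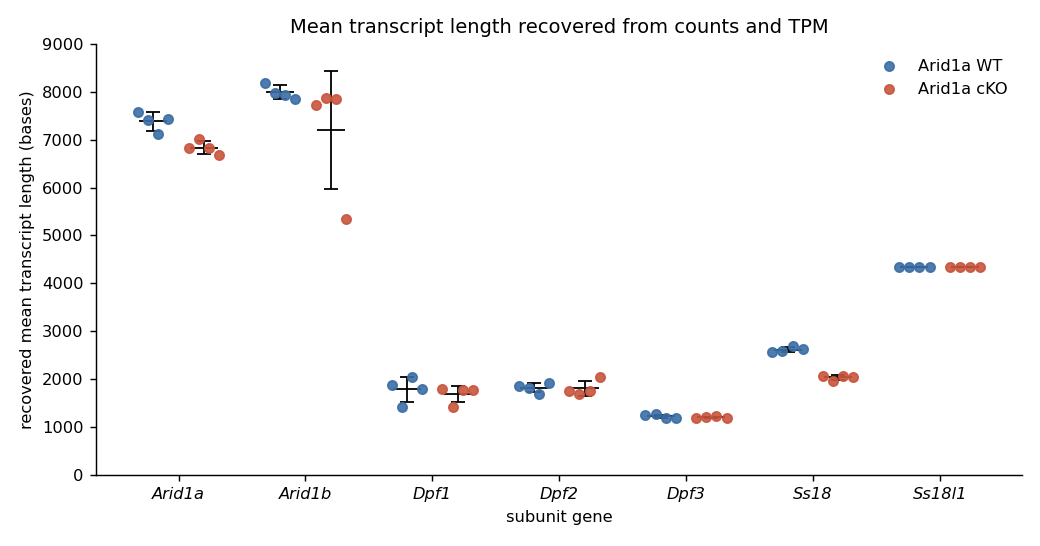
Mean transcript length in bases recovered from counts and TPM, for each gene in 4 *Arid1a* WT (blue) and 4 *Arid1a* cKO (red) libraries, with the mean and SD. *Ss18* is shorter in every *Arid1a* cKO library (1963 to 2070 bases) than in any *Arid1a* WT library (2566 to 2690 bases), and 1 *Arid1a* cKO library stands apart for *Arid1b*.

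Ordered by mean TPM, the *Arid1a* WT libraries ran *Dpf2* (68.7 ± 6.53), *Ss18* (44.2 ± 0.965), *Arid1a* (22.7 ± 3.85), *Dpf3* (13.9 ± 1.16), *Dpf1* (6.55 ± 1.85), *Arid1b* (1.33 ± 0.313) and *Ss18l1* (1.33 ± 0.284, SD, n = 4 each). Neighbours in this order did not overlap, except *Arid1b* and *Ss18l1*. In *Arid1a* cKO the order was *Dpf3* (72.3 ± 0.671), *Dpf2* (58.0 ± 3.73), *Ss18* (54.4 ± 1.56), *Arid1a* (15.6 ± 0.683), *Dpf1* (6.77 ± 0.943), *Arid1b* (2.19 ± 0.580) and *Ss18l1* (1.29 ± 0.209, SD, n = 4 each). Here only *Dpf2* and *Ss18* overlapped. *Dpf3* moved from place 4 to place 1, and the order of the other 6 was the same in both genotypes.

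**Figure D4:**
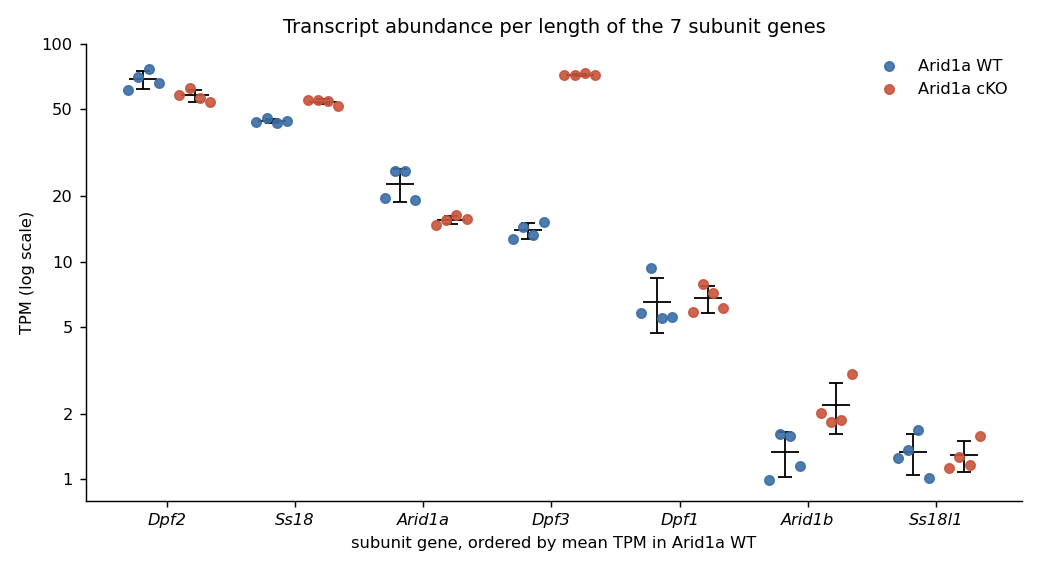
TPM on a log axis of the 7 genes in 4 *Arid1a* WT (blue) and 4 *Arid1a* cKO (red) libraries, ordered by the *Arid1a* WT mean, with mean and SD. *Dpf3* is in place 4 in *Arid1a* WT (13.9 TPM) and in place 1 in *Arid1a* cKO (72.3 TPM).

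The other subunit genes gave a background for these changes. Of 22, 19 were called (86.4%, against 74.0% of all 17643 genes tested), 7 higher and 12 lower, with a median log2 fold change of -0.22 against -0.02 over all genes. The largest falls were in *Bcl7b*, an accessory subunit (-1.81 ± 0.06, edgeR adjusted p = 2.17e-12), *Smarca4*, which encodes the ATPase BRG1 (-1.33 ± 0.05, adjusted p = 1.2e-11), and *Smarcd1*, a core subunit (-1.24 ± 0.07, adjusted p = 3.89e-10). The largest rises were in *Bcl7c* (1.09 ± 0.06, adjusted p = 2.17e-10), *Bicra* of non-canonical BAF (0.83 ± 0.18, adjusted p = 0.000764) and *Actb*, which also encodes cytoskeletal actin (0.83 ± 0.04, SE, adjusted p = 4.07e-10). All 4 genes specific to PBAF, the form built on ARID2, were called lower, at -0.94 to -0.24, where 6613 of the 17643 genes tested were called lower. *Arid1a* fell less than *Arid2*, at -0.51 against -0.77, a difference that was not tested, and no other subunit rose as far as *Dpf3*. The ARID1 genes together, with excised *Arid1a* transcripts counted in, reached 0.153 to 0.200 of *Arid2* TPM in *Arid1a* WT and 0.229 to 0.261 in *Arid1a* cKO libraries.

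**Figure D5:**
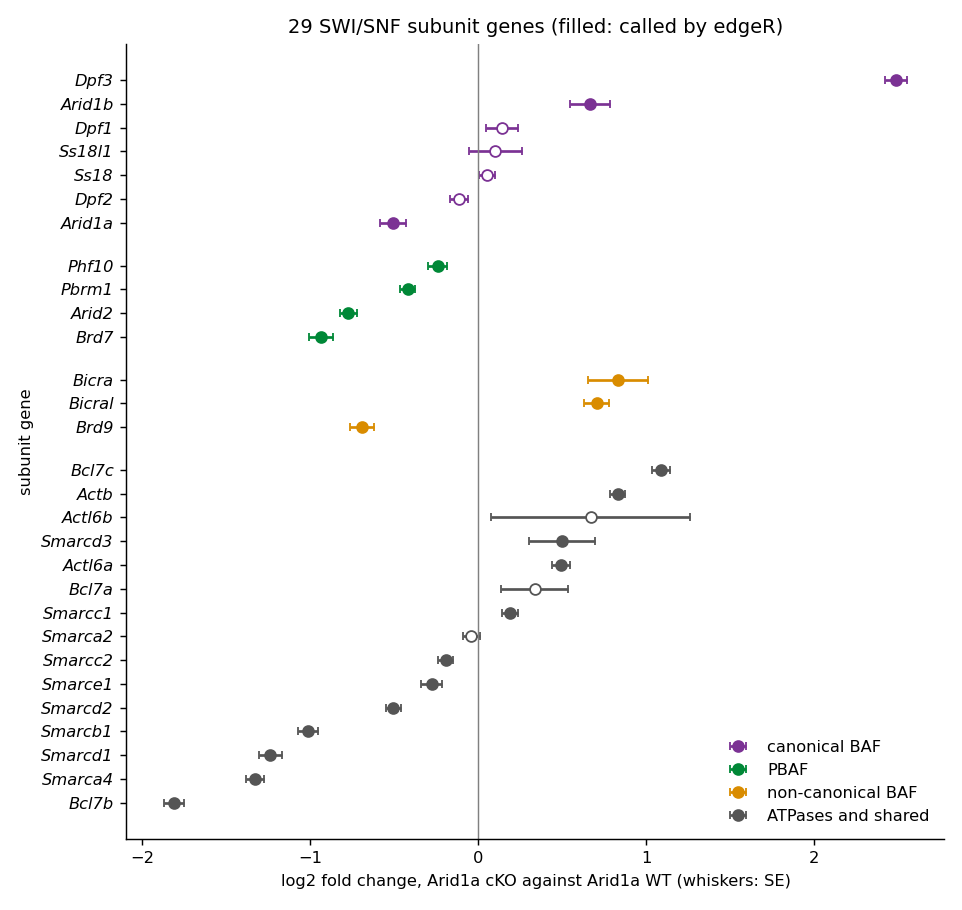
Log2 fold change of *Arid1a* cKO against *Arid1a* WT with its SE for 29 SWI/SNF subunit genes, grouped by complex, with the SS18 pair, shared with non-canonical BAF, placed in canonical BAF; filled points were called by edgeR (adjusted p of 0.05 or less, n = 4 per genotype). *Dpf3* at 2.49 lies apart from the rest, which span -1.81 to 1.09.

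By profile over the 8 libraries, the genes nearest to *Arid1a* among 9706 whose average log2 CPM was at least 3 were *Prrc2c* (distance 0.0770), *Pom121* (0.116) and *Zfp142* (0.132). The distance is Euclidean, on log2 CPM centred on each gene's mean. *Prrc2c* fell from 154.5 to 108 CPM, a log2 fold change of -0.51 ± 0.07 (SE, edgeR adjusted p = 2.32e-05). *Pom121* changed by -0.57 ± 0.06 (SE, adjusted p = 1.5e-06) and *Zfp142* by -0.47 ± 0.07 (SE, adjusted p = 2.56e-05).

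Few of these values rest on sequence shared with other genes. The share of 31-base words of a gene's transcripts that also occurred in transcripts of another gene was 0.0237% for *Dpf3*, 0.182% for *Arid1b*, 0.441% for *Ss18l1* and 1.30% to 2.65% for *Dpf1*, *Dpf2* and *Arid1a*. It was highest for *Ss18*, at 7.21%, and the gene *Gm1826* shared the most words with it. Exons of *Gm44632* overlapped 1.79% of *Dpf1* exon bases and exons of *Gm42067* 1.22% of those of *Dpf2*, and the other 5 genes had no exon overlap.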

How the data were processed

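RNA of purified pachytene spermatocytes was compared between 4 *Arid1a* WT and 4 *Arid1a* cKO libraries, grouped by their labels. The authors quantified 50 bp paired-end reads with Salmon and used tximport to sum transcripts of the mm10 annotation per gene. They deposited estimated counts per gene, scaled neither for library size nor for transcript length, and TPM. A deposited list of differentially expressed genes holds the authors' own DESeq2 fold changes and p-values and was not used. All columns of the first 2 tables were matched to samples.

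Estimated counts were rounded, and edgeR 4.0.16 in R 4.3.3 (TMM, glmQLFit and glmQLFTest, genotype only) was run on genes with a summed count of 10 or more. On simulated counts of 17338 genes that passed the filter, with 200 genes changed 2-fold beforehand, edgeR recovered 84.3% of the 197 changed genes left. These changes were few and evenly up and down, whereas 74.0% of genes were called in the data, so the simulation did not test the scaling. Paralog ratios were tested by exact permutation over 70 assignments. Alternatives were DESeq2 1.42.0, 3 other scalings, 3 other count filters, a replicate block, length offsets, limma 3.58.1 on log2(TPM + 1) and log2(TPM + 0.1), a stricter threshold, other ratio units and each library left out.

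The genes named were the 7 members, the 3 largest rises and 3 largest falls among called other subunits, and the 3 genes nearest to *Arid1a*. The members and lists were chosen with earlier results of these data known. The shares within a class, the ratio to *Arid2* and the lengths in bases were added after seeing the data. Coordinates of genes are from RefSeq, and exons and shared words from GENCODE M21. Counts limit the precision most for *Ss18l1*.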

Additional observations from a re-analysis of the deposited data

Results flagged for a closer look

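Among 50 groups of 4 values (CPM, TPM, recovered length and log2 ratios of the 7 genes), 7 held a library that stood apart. Its gap to its nearest neighbour, as a share of the range, passed Dixon's 95% critical value. Chance gives about 1 in 20 among independent groups. These groups are built from the same counts and TPM, so their number cannot be set against chance. For *Arid1b*, *Arid1a* cKO library 4 stood apart in TPM (3.06 against 1.84 to 2.02, gap 0.852) and in recovered length (5352 against 7717 to 7867 bases, gap 0.941), but not in CPM. For *Dpf1*, *Arid1a* WT library 2 stood apart in TPM (9.31 against 5.51 to 5.80, gap 0.924), *Arid1a* cKO library 3 in CPM (8.76 against 7.45 to 7.54, gap 0.937) and *Arid1a* cKO library 2 in recovered length (1424 against 1761 to 1792 bases, gap 0.916). *Ss18* TPM was lowest in *Arid1a* cKO library 4 (52.0 against 54.9 to 55.4, gap 0.855). The log2 ratio of *Arid1b* to *Arid1a* was lowest in *Arid1a* WT library 1 (-4.31 against -4.06 to -4.01, gap 0.835).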

How the results depend on the processing

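*Arid1a*, *Arid1b* and *Dpf3* kept their direction and call in all 19 alternative fits. The count of members called was 5 with limma on log2(TPM + 1) and on log2(TPM + 0.1), with *Dpf2* and *Ss18* added. *Dpf2* was called lower at -0.22 without TMM (edgeR adjusted p = 0.0027), -0.24 in both limma fits (adjusted p = 0.0124 and 0.0122) and -0.12 with the replicate block (edgeR adjusted p = 0.0492). Leaving out 1 library gave -0.149 to -0.079. *Dpf1* was not called in any fit, at 0.04 to 0.19, the lowest without TMM. *Ss18* was called higher at 0.39 with length offsets and at 0.29 and 0.30 in the limma fits, and was at -0.049 without TMM, where the median of all genes moved to -0.12. With 1 library left out, *Ss18* was not called, at 0.025 to 0.077. *Ss18l1*, not called in any fit, was at -0.002 without TMM, -0.023 and -0.035 in the limma fits, and at -0.008 to 0.209 with 1 library left out.

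For the ratios, leaving out 1 library gave differences of 0.19 to 0.49 for *Dpf1* to *Dpf2*, 1.08 to 1.34 for *Arid1b* to *Arid1a* and 2.55 to 2.69 for *Dpf3* to *Dpf2*. For *Ss18l1* to *Ss18* the difference was -0.46 to -0.20 with 1 library left out, and it turned to 0.062 on CPM. Under the replicate block, the paired exact permutation gave p = 0.125 for *Arid1b* to *Arid1a* (1.25) and *Dpf3* to *Dpf2* (2.63), the smallest p that 4 pairs allow. Same-numbered libraries are not stated to share an animal or day. Their deviations correlated at 0.16, 0.01, 0.09 and -0.14, where differently numbered pairs gave -0.20 to 0.19. So few libraries cannot settle whether they were paired. The block left 13100 genes called in place of 13048. Beyond *Dpf2* the block changed no call of a member. The lowest counts were those of *Ss18l1*, whose SE of 0.16 is the largest of the 7. With 1 library left out, the log2 difference in recovered length was -0.39 to -0.37 for *Ss18* and -0.12 to -0.09 for *Arid1a*. For *Arid1b* it was -0.17 with all libraries and -0.03 without *Arid1a* cKO library 4. For *Dpf1* (-0.20 to 0.01) and *Dpf2* (-0.075 to 0.025) its sign changed with the library left out.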
